A study of Mus musculus with 8 samples.

Results

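Immune surface, cytokine and lineage marker genes were followed across 8 Affymetrix Mouse Gene 1.0 ST arrays of transduced bone marrow cells. The genes were taken from the authors' deposited gene list by the first letters of their symbols: CD antigens, interleukins, complement and Ly genes, chemokines and chemokine receptors, C-type lectins, Fc receptors, integrins, interferon and TNF families, colony stimulating factors, paired receptors, siglecs, Toll-like receptors, MHC genes, killer cell receptors, Igll and Flt3. Of 1081 listed probe sets with 1 symbol, 46 matched, the rule left out 7, and 39 genes with 1 probe set each remained. Among them, 36 code for immune, adhesion or broad leukocyte surface products, while C030016D13Rik, C530025M09Rik and C2cd4a matched by letters only. A further 7 matching rows carried several symbols and were not taken.

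Each of 4 groups had 2 arrays, with the replicate labels 2 and 3. WT_MIG cells came from wild-type (miR-223+/+) mice, and KO_MIG, KO_223mut and KO_starmut cells from mir-223-/- mice, which lack miR-223, all of strain C57/BL6. Cells of every group, the wild type included, had been stimulated for 2 days, had received MSCV retroviruses for Hoxa9 (with a neomycin marker) and Meis1 (with YFP) from producer cells irradiated with 4000 cGy, and had been selected by YFP sorting and neomycin at 1.4 mg/ml. The arrays therefore describe marrow cells driven by a pair of leukaemia-associated transcription factors, not fresh marrow. MIG is not spelled out in the labels. KO_223mut and KO_starmut are read here as knockout cells with a miR-223 vector changed in the guide or in the passenger strand. The series calls the replicates biological but names neither mice nor cultures. The p-values therefore rest on the spread of these 8 arrays, which may be technical.

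miR-223 is a microRNA of myeloid cells whose level rises as granulocytes mature and which is known to restrain their number and activation. The genes followed here are the surface and secreted molecules by which leukocytes are told apart and talk to each other: integrins and lectins of mature phagocytes, complement regulators, co-stimulatory ligands and receptors of the TNF superfamily, cytokines, and antigens that mark B cells, T and NK cells and mast cells. A microRNA acts mainly through its seed, bases 2 to 8, which pairs with target transcripts. The mature strands are shown because the vectors are read as differing in them. They are RefSeq entries of GRCm38.p6 on the + strand, with the seed in capitals, the passenger strand at chrX:96242842-96242864 and the guide strand at chrX:96242884-96242905.
mmu-miR-223-5p: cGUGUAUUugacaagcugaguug
mmu-miR-223-3p: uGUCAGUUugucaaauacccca
The seeds of the strands differ. The vectors' own sequences were not used here.

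Values are log2 signals centred, probe set by probe set, on the median of all 8 arrays. They show differences between arrays and no level above background, so neither the abundance of a gene nor the labelled tissue could be checked against its defining markers. In cultures, fewer cells of a type and less RNA per cell cannot be told apart. The authors' list kept probe sets with an uncorrected p-value under 0.05 in an analysis of variance over the same 4 groups, and in the authors' deposited table the 39 genes had p-values from 0.00162 (Cd55) to 0.05 (Cd74). A difference between some groups was therefore built into every gene, and counts of differing genes below describe the list and are not independent evidence. For the 39 genes the median difference between the replicates of a group was 0.045 to 0.0636. Over all 28853 probe sets it was 0.0884 to 0.101. The authors' test favours probe sets with close replicates, so the smaller values are no sign of data quality. The probe set that covers Mir223, listed with a further symbol, read -0.98 and -1.07 in WT_MIG and -0.08 to 0.15 in the 6 knockout arrays. It was thus higher in the arrays labelled knockout. Where its probes lie relative to the deletion is not stated. This probe set is therefore no test of the genotypes, which are taken from the labels throughout.

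The 4 group means were ranked within each gene. The same ranks were not counted over all probe sets, so nothing is read from the counts. The WT_MIG mean was the highest of the 4 group means for 18 genes and the lowest for 9. KO_starmut was the lowest for 17 and the highest for 3, while KO_223mut was the highest for 10 and the lowest for 10. The span between the highest and lowest group mean had a median of 0.27 and ran from 0.08 (Cd164) to 1.79 (Cd55). By role it was widest among myeloid surface and lysosome genes, with a median of 0.53, and narrowest in the genes matched by letters only, at 0.16.

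**Figure D1:**
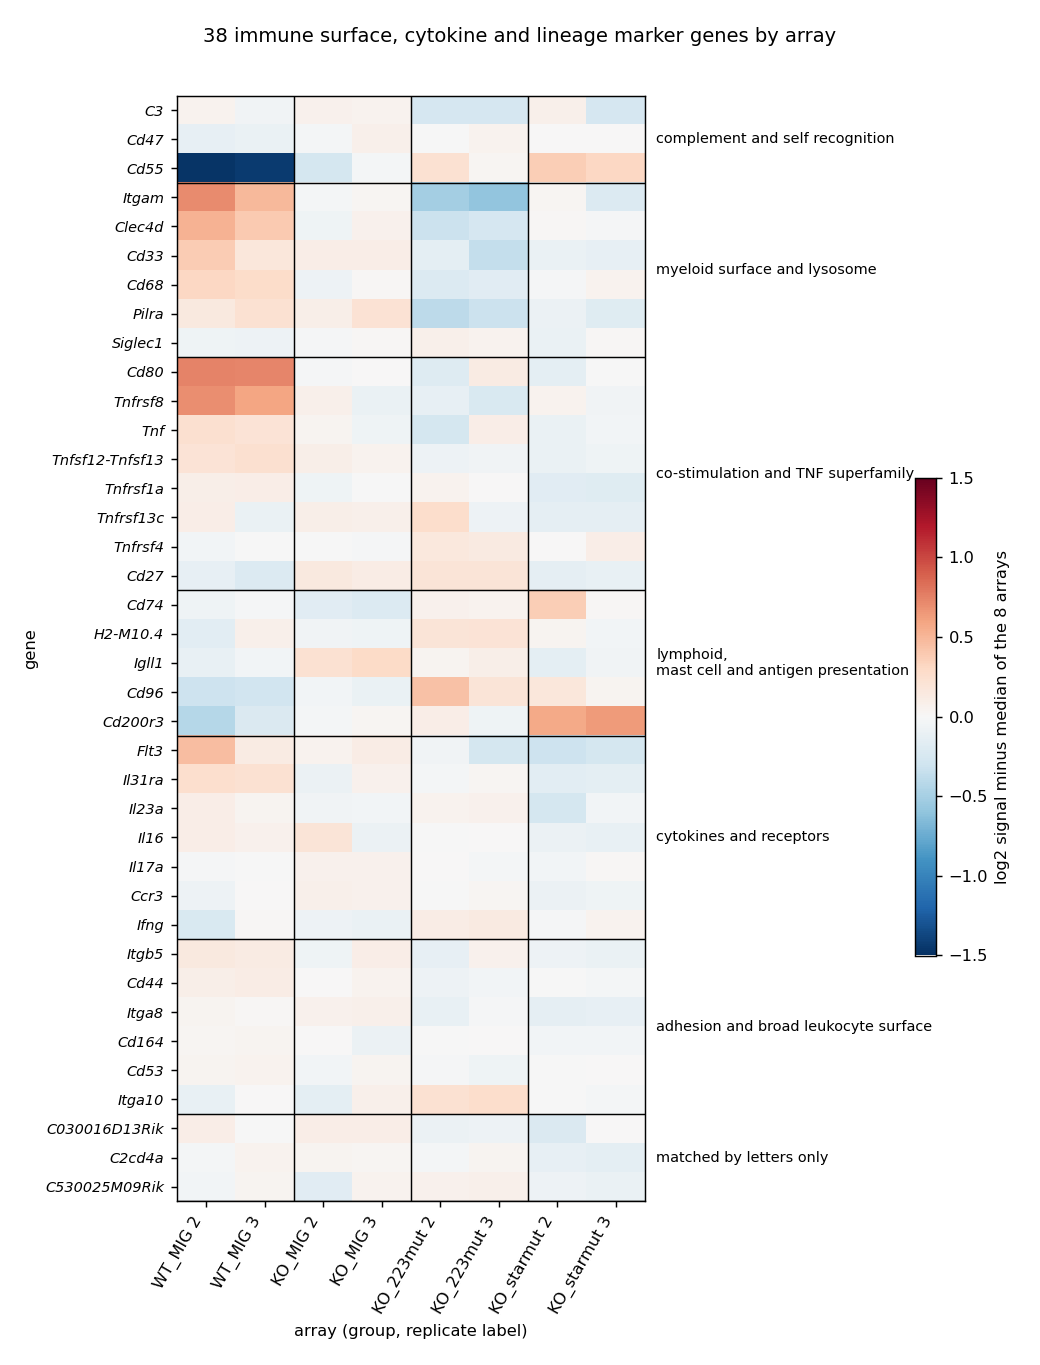
Heat map of 38 of the 39 genes (rows, grouped by role) in the 8 arrays (columns, group and replicate label), with colour for the log2 signal minus the median of the 8 arrays. Cd55 is lowest in both WT_MIG arrays (-1.47 and -1.43), Cd80, Tnfrsf8, Itgam and Clec4d are highest there, and Itgam is lowest in KO_223mut (-0.51 and -0.59).

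The comparison of knockout with wild-type cells asks what differs with the genotype. Of the 3 knockout groups, only KO_MIG is not read as carrying a changed miR-223 vector, so the mean over them mixes vectors. Over all 3 knockout groups, mature myeloid genes (Itgam, Clec4d, Cd68), the co-stimulatory ligand Cd80 and the TNF receptor family member Tnfrsf8 were lower than in WT_MIG. The complement regulator Cd55 and the mast cell and basophil receptor Cd200r3 were higher. These 7 of 39 genes (17.9%) passed an adjusted p of 0.05 in limma for the mean of the 3 knockout groups minus WT_MIG, 2 higher and 5 lower, against 0.915% of all probe sets (0.308% higher and 0.607% lower) and 9.4% of the 1042 other named probe sets of the list. At an unadjusted p under 0.05 there were 19 (48.7%), against 9.28% of all probe sets and 41.0% of the other named ones. Adding the replicate number as a block gave 12 (2.85% of all probe sets). With KO_MIG alone against WT_MIG, 1 of 39 passed (Cd55, 2.56%), against 0.135% of all probe sets and 2.59% of the other named ones. In that comparison 12 had an unadjusted p under 0.05 (30.8%, against 5.58% and 28.4%). With the block 6 passed (15.4%, against 0.96% and 6.14%). The median difference was -0.03 in KO_MIG minus WT_MIG, against 0.01 over all probe sets, and -0.07 against 0.01 for all knockout groups.

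The 6 knockout arrays lay on one side of both WT_MIG arrays for 19 of the 39 genes, against 10.8% of all probe sets. In 15 genes they lay below (4.75% of all probe sets) and in 4 above (6.06%). The 4 above were Cd55, Cd200r3, Cd96 and Cd47. Of the other named probe sets of the list 42.3% did not overlap. The list was chosen on a test over these groups, so nothing is read from the shares.

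**Figure D2:**
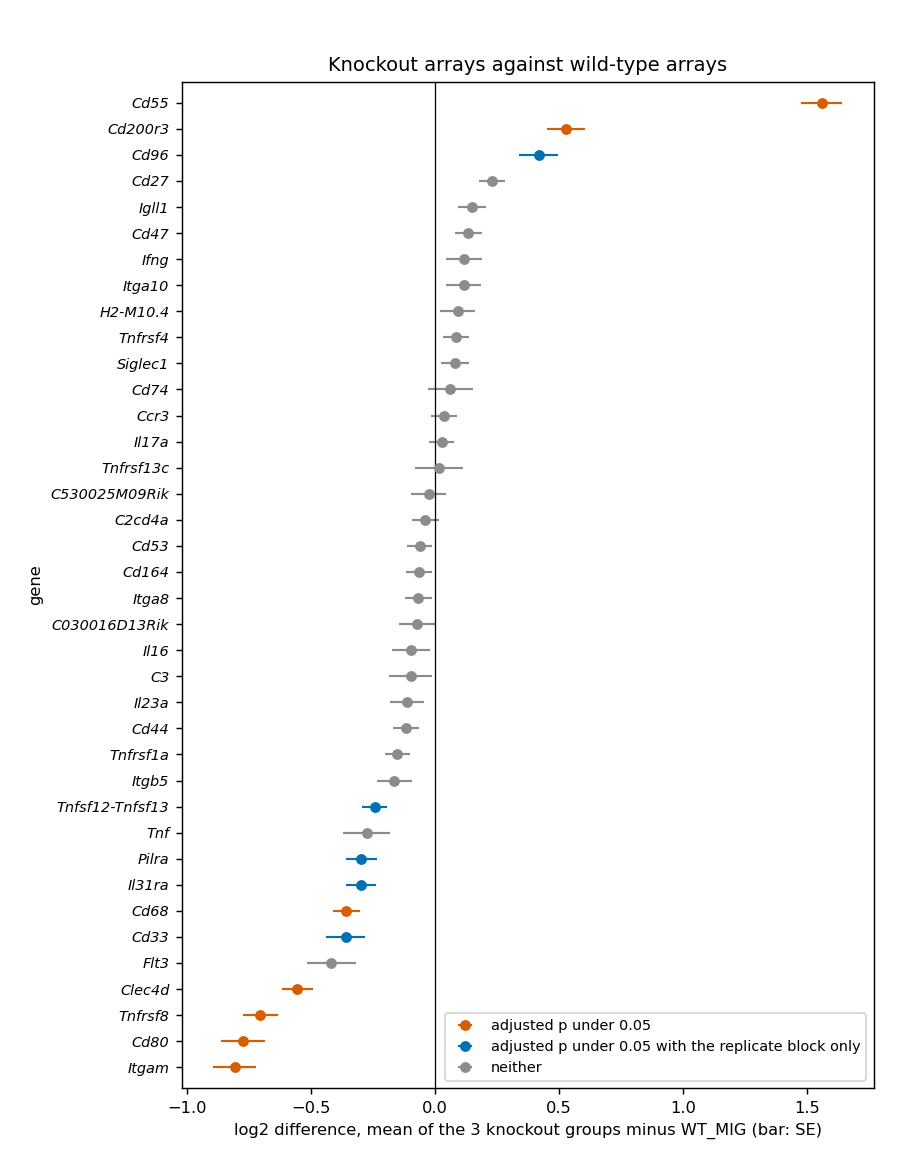
Log2 difference of the mean of the 3 knockout groups minus WT_MIG for 38 of the 39 genes (points; bars are the moderated SE), ordered by size. The 7 genes in orange passed an adjusted p of 0.05, from Itgam at -0.81 to Cd55 at 1.56, and 5 in blue (Cd96, Tnfsf12-Tnfsf13, Pilra, Il31ra and Cd33) passed with the replicate number as a block only.

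Complement and self recognition genes were led by Cd55, which speeds the decay of the enzymes that cleave C3 and so shields cells from complement. Its WT_MIG arrays read -1.47 and -1.43, its KO_MIG arrays -0.26 and -0.03, its KO_223mut arrays 0.23 and 0.03, and its KO_starmut arrays 0.37 and 0.32. Every knockout array was above every wild-type array by more than 1 log2 unit, and KO_starmut was above the other knockout groups. For all knockout groups the difference was 1.56 ± 0.08 (log2, SE, 6 arrays against 2, 2.95-fold, limma adjusted p = 0.000588), and it passed in all 12 alternative settings run for it, with adjusted p-values up to 0.016. For KO_MIG alone it was 1.31 ± 0.10 (adjusted p = 0.00794), a call lost without WT_MIG replicate 2 (adjusted p = 0.0561), WT_MIG replicate 3 (0.0541) or KO_MIG replicate 3 (0.0892), and in a fit to these 4 arrays alone (0.0607). C3 itself, the central complement protein that those enzymes cleave, read 0.05 and -0.05 in WT_MIG and 0.06 and 0.05 in KO_MIG. These groups overlapped. Cd47, which signals to phagocytes not to engulf a cell, read -0.12 and -0.10 in WT_MIG and -0.03 to 0.08 in the knockout arrays. Its arrays did not overlap, but the difference of 0.13 ± 0.06 did not pass (adjusted p = 0.517).

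Of 6 myeloid surface and lysosome genes, 3 passed as lower over all knockout groups and none as higher. Of all probe sets 0.607% passed as lower, and of the other named ones 5.95%. The roles were drawn up with earlier results of these data known, so counts by role, here and below, are no independent support. The median difference of the 6 myeloid genes was -0.36, with Siglec1 the one above 0 at 0.08. Itgam, the alpha chain of the integrin Mac-1 by which phagocytes bind complement-coated particles, read 0.71 and 0.48 in WT_MIG, -0.03 and 0.03 in KO_MIG, -0.51 and -0.59 in KO_223mut, and 0.03 and -0.20 in KO_starmut. Wild-type arrays were highest, KO_223mut arrays lowest, and KO_MIG and KO_starmut lay together between them. Over all knockout groups it fell by 0.81 ± 0.09 (1.75-fold, limma adjusted p = 0.0097). Clec4d, a C-type lectin by which macrophages sense mycobacterial glycolipids, also had the wild type highest and KO_223mut lowest, with 0.52 and 0.40 in WT_MIG, -0.06 and 0.06 in KO_MIG, -0.32 and -0.26 in KO_223mut, and 0.02 and -0.02 in KO_starmut. It fell by 0.56 ± 0.06 (1.47-fold, adjusted p = 0.0097). Cd68, a lysosomal glycoprotein of macrophages, read 0.31 and 0.28 in WT_MIG, -0.07 and 0.02 in KO_MIG, -0.21 and -0.17 in KO_223mut, and -0.02 and 0.05 in KO_starmut, a fall of 0.36 ± 0.05 (1.28-fold, adjusted p = 0.0324).

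Leaving out single arrays ended calls among the myeloid genes. Without WT_MIG replicate 2 the adjusted p-values were 0.0672 for Itgam and 0.112 for Clec4d, and without WT_MIG replicate 3 that of Clec4d was 0.0612. The call for Cd68 was lost without any one of the 8 arrays, with adjusted p-values from 0.0636 to 0.316. In KO_MIG alone against WT_MIG the differences were -0.59 ± 0.10 for Itgam (adjusted p = 0.126, or 0.0239 with the replicate number as a block), -0.46 ± 0.08 for Clec4d (adjusted p = 0.126, or 0.0431 with the block) and -0.32 ± 0.07 for Cd68 (adjusted p = 0.199, or 0.0713 with the block).

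The other members of the role did not pass in the fit without the block. Cd33, a sialic acid-binding receptor of myeloid cells, read 0.38 and 0.17 in WT_MIG, 0.10 and 0.10 in KO_MIG, -0.15 and -0.36 in KO_223mut, and -0.10 and -0.12 in KO_starmut. All its knockout arrays were below the wild type, with a difference of -0.36 ± 0.08 (limma adjusted p = 0.12, or 0.0289 with the block). Pilra, an inhibitory paired receptor of myeloid cells, read 0.14 and 0.22 in WT_MIG and 0.08 and 0.22 in KO_MIG, and so overlapped there, while its other knockout arrays read -0.39 to -0.08. Its difference over all knockout groups was -0.30 ± 0.06 (adjusted p = 0.104, or 0.0426 with the block). Siglec1, the sialoadhesin of resident macrophages, read -0.06 and -0.08 in WT_MIG and -0.10 to 0.07 in the knockout arrays, with overlap.

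Because Itgam, Clec4d and Cd68 all fell, their promoters are shown, from 250 bases before to 50 after the RefSeq start, GRCm38.p6, with matches to 2 motifs in capitals. The motifs were GAGGAA, the core bound by the myeloid factor PU.1, and TTNNGCAA, a core pattern of C/EBP factors, each searched on both strands, where they read TTCCTC and TTGCNNAA. The windows are chr7:128062390-128062689 (+ strand), chr6:123261857-123262156 (+ strand) and chr11:69666121-69666420 (- strand).
Itgam: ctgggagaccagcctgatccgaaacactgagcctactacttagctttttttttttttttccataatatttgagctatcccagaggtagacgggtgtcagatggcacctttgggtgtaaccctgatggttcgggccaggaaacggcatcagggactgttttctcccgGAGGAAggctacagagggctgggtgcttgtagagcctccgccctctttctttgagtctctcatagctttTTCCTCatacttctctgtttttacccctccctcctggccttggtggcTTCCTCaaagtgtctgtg
Clec4d: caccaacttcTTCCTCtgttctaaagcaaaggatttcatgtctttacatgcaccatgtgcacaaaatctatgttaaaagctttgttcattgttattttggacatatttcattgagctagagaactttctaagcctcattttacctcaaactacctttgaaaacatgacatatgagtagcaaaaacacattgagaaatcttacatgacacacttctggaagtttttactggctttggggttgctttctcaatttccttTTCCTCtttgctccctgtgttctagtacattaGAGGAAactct
Cd68: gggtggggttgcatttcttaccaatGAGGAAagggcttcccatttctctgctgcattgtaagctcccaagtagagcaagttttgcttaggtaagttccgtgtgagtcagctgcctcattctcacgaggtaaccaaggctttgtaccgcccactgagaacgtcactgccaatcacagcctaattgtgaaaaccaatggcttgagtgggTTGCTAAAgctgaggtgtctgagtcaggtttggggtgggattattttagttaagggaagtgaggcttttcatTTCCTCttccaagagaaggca
The PU.1 core occurred 3 times for Itgam, 3 times for Clec4d and 2 times for Cd68, and the C/EBP pattern occurred for Cd68 alone among these genes, 1 time. No capitals overlap between motifs. The core was found in 28.3% of 27025 promoters of this length and in 15 of the 34 member promoters in the table, and the C/EBP pattern in 10.8% and in 5 of 34. A match describes letters in a window and is not evidence that a factor binds there.

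**Figure D3:**
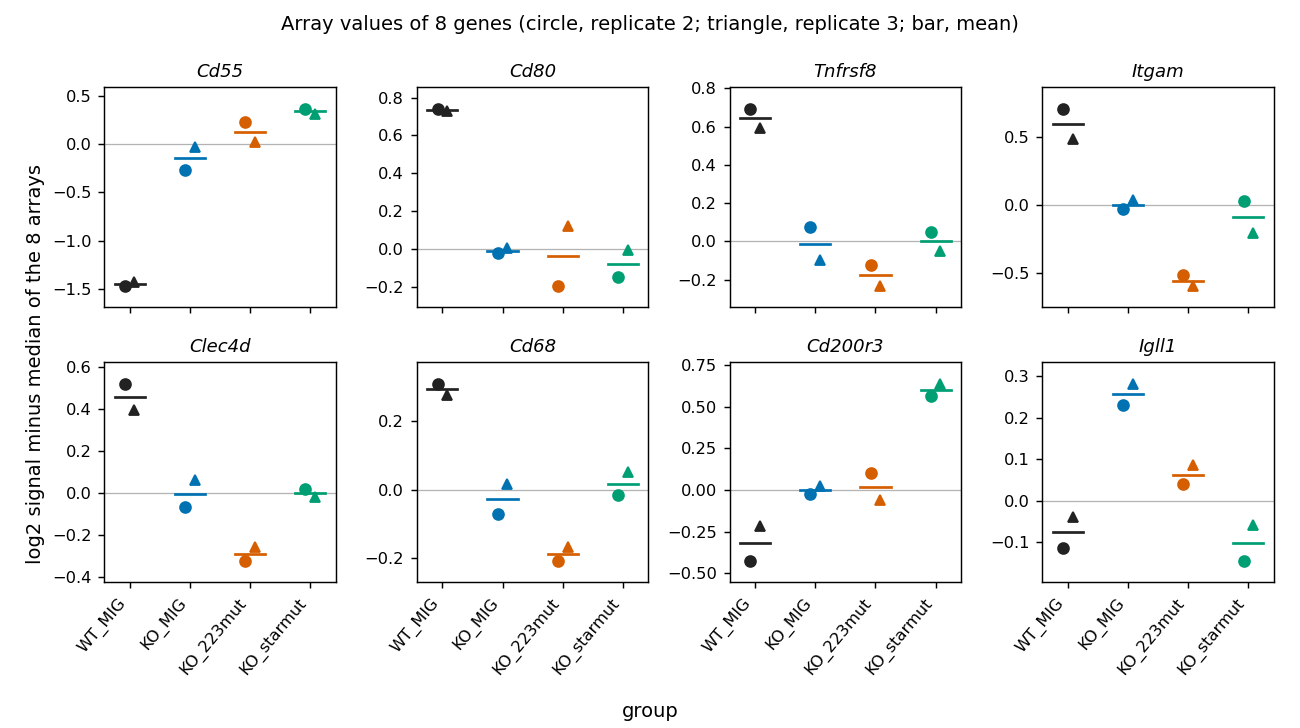
Array values of 8 genes by group (circles, replicate 2; triangles, replicate 3; bars, group mean) on the scale of log2 signal minus the median of the 8 arrays, with its own axis range for each gene. Itgam, Clec4d and Cd68 are highest in WT_MIG and lowest in KO_223mut, whereas Cd200r3 is highest in KO_starmut (0.57 and 0.64) and Igll1 in KO_MIG (0.23 and 0.28).

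Co-stimulatory and TNF superfamily genes included a pair of calls, both lower. Cd80, the ligand of CD28 and CTLA-4 on antigen-presenting cells, read 0.74 and 0.73 in WT_MIG, -0.02 and 0.00 in KO_MIG, -0.19 and 0.12 in KO_223mut, and -0.15 and 0.00 in KO_starmut. The wild-type arrays stood alone, and the knockout groups overlapped with each other. It fell by 0.78 ± 0.09 (1.71-fold, limma adjusted p = 0.0097). Tnfrsf8, the CD30 receptor of activated lymphocytes, read 0.69 and 0.59 in WT_MIG, 0.07 and -0.10 in KO_MIG, -0.12 and -0.23 in KO_223mut, and 0.05 and -0.05 in KO_starmut. It fell by 0.70 ± 0.07 (1.63-fold, adjusted p = 0.00845). Without WT_MIG replicate 2 the adjusted p-values were 0.103 for Cd80 and 0.0729 for Tnfrsf8, and without WT_MIG replicate 3 they were 0.0888 and 0.058. In KO_MIG alone the differences were -0.74 ± 0.11 for Cd80 (adjusted p = 0.0844, or 0.0173 with the block) and -0.65 ± 0.09 for Tnfrsf8 (adjusted p = 0.0602, or 0.00529 with the block). Cd80 also passed in KO_MIG without KO_223mut replicate 2 or replicate 3 (adjusted p = 0.0453 in each case).

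The other 6 genes of this role did not pass. The inflammatory cytokine Tnf read 0.24 and 0.21 in WT_MIG and -0.26 to 0.10 in the knockout arrays, a difference of -0.28 ± 0.09 (adjusted p = 0.366). Its receptor Tnfrsf1a read 0.09 and 0.10 in WT_MIG and -0.18 to 0.05 in the knockout arrays, a difference of -0.15 ± 0.05 (adjusted p = 0.359). Ligand and receptor thus both lay below the wild-type arrays without passing. Tnfsf12-Tnfsf13, a readthrough of the neighbouring genes for the cytokines TWEAK and APRIL with which it shares exons, read 0.20 and 0.24 in WT_MIG and -0.09 to 0.09 in the knockout arrays. Its difference was -0.24 ± 0.05 (adjusted p = 0.0957, or 0.0391 with the block), and reads of its parts cannot be separated here. In the RefSeq table this gene lies next to Cd68 on chromosome 11, with 2 protein-coding genes starting between them, and its current symbol is Tnfsfm13. Cd27, the receptor of CD70 on lymphocytes and progenitors, ran the other way, with -0.12 and -0.21 in WT_MIG, 0.14 and 0.11 in KO_MIG, and 0.19 and 0.20 in KO_223mut. Its KO_starmut arrays read -0.14 and -0.11, which overlapped the wild type. Over all knockout groups the difference was 0.23 ± 0.05 (adjusted p = 0.138). Tnfrsf4 (OX40) and Tnfrsf13c (the receptor of the B cell factor BAFF) overlapped between knockout and wild type, with values between -0.14 and 0.27.

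Lymphoid, mast cell and antigen presentation genes had 1 call, Cd200r3, a member of the CD200 receptor family on mouse mast cells and basophils. It read -0.43 and -0.22 in WT_MIG, -0.02 and 0.02 in KO_MIG, 0.10 and -0.06 in KO_223mut, and 0.57 and 0.64 in KO_starmut. KO_MIG by itself exceeded WT_MIG by 0.32 ± 0.09, which did not pass (limma adjusted p = 0.504). KO_starmut exceeded KO_MIG by a further 0.60 ± 0.09. The difference over all knockout groups, which includes KO_starmut, was 0.53 ± 0.08 (1.44-fold, adjusted p = 0.0249). The call was kept without KO_223mut replicate 3 (adjusted p = 0.0319) and lost without any of the 7 other arrays (adjusted p-values from 0.0523 to 0.234). Cd96, an adhesion receptor of T and NK cells, read -0.31 and -0.29 in WT_MIG, -0.05 and -0.10 in KO_MIG, 0.44 and 0.19 in KO_223mut, and 0.18 and 0.05 in KO_starmut. All knockout arrays were above the wild type, by 0.42 ± 0.08 (adjusted p = 0.0678, or 0.0183 with the block, and 0.0329 without KO_223mut replicate 3). Igll1, part of the surrogate light chain of the pre-B cell receptor, read -0.11 and -0.04 in WT_MIG and 0.23 and 0.28 in KO_MIG, a difference of 0.33 ± 0.07 (adjusted p = 0.188, or 0.0455 with the block). Its KO_starmut arrays, at -0.15 and -0.06, overlapped the wild type. Cd74, the invariant chain of MHC class II, and H2-M10.4, a non-classical MHC class I gene, overlapped between knockout and wild type. H2-M10.4 belongs to a family of close copies, and cross-hybridisation was not tested.

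Cytokines and cytokine receptors gave no call over all knockout groups in limma. At an unadjusted p under 0.05 there were 2 of 7 (9.28% of all probe sets, 41.0% of the other named ones). Flt3, the receptor tyrosine kinase of early progenitors and dendritic precursors, read 0.47 and 0.13 in WT_MIG, 0.06 and 0.11 in KO_MIG, -0.06 and -0.27 in KO_223mut, and -0.31 and -0.26 in KO_starmut. Its wild-type replicates lay 0.34 apart, the widest of the 39 genes in that group, and the difference of -0.42 ± 0.10 did not pass (adjusted p = 0.147, or 0.0515 with the block). Without WT_MIG replicate 2 it was -0.25. Il31ra, a subunit of the interleukin 31 receptor, read 0.25 and 0.23 in WT_MIG and -0.16 to 0.06 in the knockout arrays, a difference of -0.30 ± 0.06 (adjusted p = 0.0821, or 0.0299 with the block). The eotaxin receptor Ccr3 and the secreted cytokines Il17a, Ifng, Il23a and Il16 overlapped between knockout and wild type and stayed between -0.27 and 0.20 in all arrays. Without a level above background it is not known whether these genes were expressed at all.

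Adhesion and broad leukocyte surface genes had the narrowest spans among the immune roles (median 0.18), with no call in limma. At an unadjusted p under 0.05 there was 1 of 6 (9.28% of all probe sets, 41.0% of the other named ones). It was the integrin chain Itgb5 (-0.16 ± 0.07, limma adjusted p = 0.528). The hyaluronan receptor Cd44 read 0.09 and 0.11 in WT_MIG and -0.08 to 0.05 in the knockout arrays. The tetraspanin Cd53 and the sialomucin Cd164 spanned 0.09 and 0.08 between group means, and the integrin alpha chains Itga8 and Itga10 overlapped between knockout and wild type. The 3 genes matched by letters only had differences from -0.07 to -0.03 over all knockout groups, and none passed.

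The comparisons among knockout cells ask what each mutant vector changes when set against KO_MIG or against the other vector. In none did a member pass an adjusted p of 0.05 in limma, with or without the replicate number as a block, so all that follows are values. In KO_223mut minus KO_MIG 0.0% of all probe sets passed, with or without the block, and 13 of 39 genes had an unadjusted p under 0.05 (4.06% of all probe sets, 19.4% of the other named ones). In KO_starmut minus KO_MIG 0.0% passed, again in both fits, and 10 of 39 had an unadjusted p under 0.05 (4.2% and 20.6%). In KO_starmut minus KO_223mut 0.0% passed, or 0.00347% with the block, and 11 of 39 had an unadjusted p under 0.05 (4.71% and 19.7%). With the block these counts were 17, 16 and 17. The shares were then 8.61%, 8.85% and 9.74% of all probe sets, and 24.9%, 26.2% and 23.2% of the other named ones. Median differences were -0.03, -0.08 and -0.05 in that order, against 0.01, -0.01 and -0.02 over all probe sets. The first pair of comparisons share the KO_MIG arrays. KO_starmut minus KO_223mut shares its KO_starmut and KO_223mut arrays with that pair. Its value is the KO_starmut difference from KO_MIG less the KO_223mut difference, so it is no separate observation.

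In KO_223mut 5 of the 6 myeloid surface genes had their lowest group mean, a count without a share over all probe sets. Relative to KO_MIG, the same 5 were lower at an unadjusted p under 0.05 (2.31% of all probe sets, 11.9% of the other named ones). They were Itgam (-0.56 ± 0.10), Pilra (-0.51 ± 0.08), Cd33 (-0.35 ± 0.10), Clec4d (-0.29 ± 0.08) and Cd68 (-0.16 ± 0.07), each with a limma adjusted p of 1. The arrays of KO_223mut and KO_MIG did not overlap for any of the 5. In this direction that was so for 13.9% of all probe sets and 32.9% of the other named ones. C3 was also lower, at -0.25 and -0.26 in KO_223mut against 0.06 and 0.05 in KO_MIG (-0.31 ± 0.11, adjusted p = 1). At an unadjusted p under 0.05, positive values were largest for Cd96 (0.39 ± 0.09), the collagen-binding integrin chain Itga10 (0.28 ± 0.09), Cd55 (0.27 ± 0.10), H2-M10.4 (0.26 ± 0.09) and Ifng (0.21 ± 0.09). The Cd55 value was 0.15 without KO_MIG replicate 2 and 0.17 without KO_223mut replicate 2, and that of Itga10 was 0.17 without KO_MIG replicate 2. For H2-M10.4 the KO_223mut arrays both read 0.20, and those of KO_MIG both read -0.06.

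In KO_starmut the largest positive values relative to KO_MIG were those of Cd200r3 (0.60 ± 0.09, limma adjusted p = 0.679), Cd55 (0.49 ± 0.10, adjusted p = 0.767) and Cd74 (0.38 ± 0.11, adjusted p = 1). For Cd74 replicate 2 read 0.37 and replicate 3 read 0.01, and without replicate 2 the difference was 0.20. Both KO_MIG arrays were lower still, at -0.17 and -0.21. At an unadjusted p under 0.05, negative values were largest for Flt3 (-0.37 ± 0.12), Igll1 (-0.36 ± 0.07), Pilra (-0.28 ± 0.08), Cd27 (-0.26 ± 0.06) and Itga8 (-0.20 ± 0.06), with adjusted p-values from 0.767 to 1. The named stem and progenitor markers Flt3, Cd27 and Lmo2 had a median of -0.26 here, and the 6 lymphoid, mast cell and antigen presentation genes a median of 0.12. The 6 myeloid genes had a median difference of -0.07. Clec4d, Cd68, Itgam and Siglec1 overlapped between KO_starmut and KO_MIG, at 0.00, 0.04, -0.09 and -0.04, while the KO_starmut arrays of Pilra and Cd33 (-0.21 ± 0.10) lay below those of KO_MIG.

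The differences in the direct comparison of the vectors, KO_starmut minus KO_223mut, use neither KO_MIG nor WT_MIG arrays. Their SE and p-values do, because the fit takes the spread of a probe set from the arrays of all groups. The KO_223mut and KO_starmut arrays are those set against KO_MIG above, so these values are no separate observation. Of 6 myeloid genes, 4 had higher values with the starmut vector at an unadjusted p under 0.05 (1.84% of all probe sets, 6.14% of the other named ones). These were Itgam (0.47 ± 0.10), Clec4d (0.29 ± 0.08), Pilra (0.23 ± 0.08) and Cd68 (0.20 ± 0.07), each with a limma adjusted p of 1. Cd200r3 gave the largest difference, 0.58 ± 0.09 (adjusted p = 0.741). Negative values at an unadjusted p under 0.05 included those of Cd27 at -0.32 ± 0.06 (adjusted p = 0.954), Itga10 at -0.27 ± 0.09, Il23a at -0.21 ± 0.09 and Tnfrsf1a at -0.20 ± 0.06 (each adjusted p = 1). Il23a read -0.27 and -0.04 in KO_starmut, and its difference was -0.10 without the first of these arrays and -0.33 without the second.

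Set against each other, the differences KO_MIG minus WT_MIG and KO_starmut minus KO_223mut share no array, although same-numbered arrays of all groups deviated together. Their p-values are not independent, because both rest on the spread taken from all groups. The signs were opposite for 25 of 39 genes (64.1%), against 53.9% of the 1042 other named probe sets and 52.0% of all probe sets. Itgam, Clec4d and Cd68, lower in KO_MIG than in WT_MIG, were higher in KO_starmut than in KO_223mut, while Cd27 and Igll1 were higher in KO_MIG and lower with the starmut vector. Cd200r3 had the same sign in both. These 6 were the genes with an unadjusted p under 0.05 in both comparisons. Cd80 and Tnfrsf8, with large genotype differences, gave -0.04 and 0.18 between vectors. For Itgam, Clec4d and Cd68 the KO_starmut arrays overlapped those of KO_MIG, and the KO_223mut arrays lay below both.

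**Figure D4:**
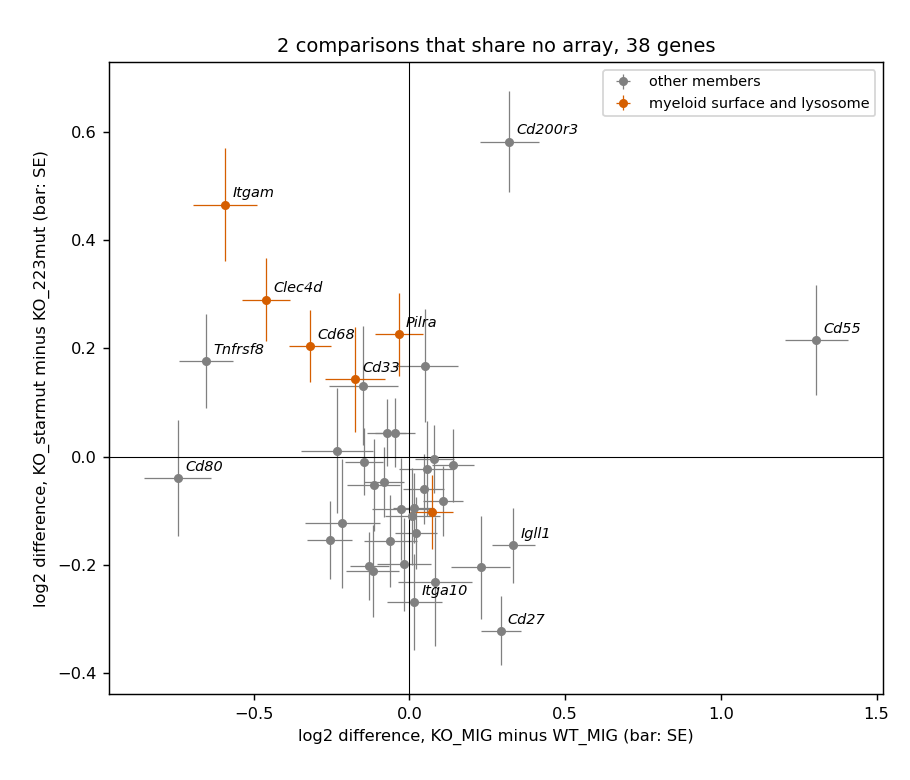
Log2 difference KO_starmut minus KO_223mut (vertical) against KO_MIG minus WT_MIG (horizontal) for 38 of the 39 genes, with bars for the SE and myeloid surface and lysosome genes in orange. Itgam, Clec4d and Cd68 lie upper left, Cd27 and Igll1 lower right, and Cd55 far right at 1.31 and 0.22.

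Lineage markers could be followed only if named in the authors' list. Of 208 genes in 11 marker lists 18 were named, 13 of them among the 39 genes. The myeloid lists were represented by Itgam (1 of 20 granulocyte genes) and by Cd68, Clec4d and Pilra (3 of 39 monocyte and macrophage genes). Igll1 stood for the B lineage, Cd96 for T and NK cells (1 of 24), Cd200r3 for mast cells and basophils (1 of 18), Ccr3 for eosinophils (1 of 10), and Flt3, Cd74 and Cd80 for dendritic cells (3 of 20). Of 17 stem and progenitor markers 4 were named, and the 3 used (Flt3, Cd27 and Lmo2) gave no call. Over all knockout groups 2 of them were higher and 1 lower at an unadjusted p under 0.05, with a median difference of 0.23. In either direction that held for 9.28% of all probe sets and 41.0% of the other named ones. In KO_starmut minus KO_MIG all 3 were lower at an unadjusted p under 0.05. There the shares in either direction were 4.2% and 20.6%. The list was chosen on a test over these groups, so nothing is read from these counts. No erythroid or megakaryocyte marker was named (0 of 14). Of the fibroblast markers that could report producer cells, 2 of 12 were named, Dcn and Mmp2, without a call. Their median difference was 0.03 over all knockout groups and -0.02 in KO_MIG minus WT_MIG. It was 0.18 in KO_223mut minus KO_MIG and -0.21 in KO_starmut minus KO_223mut, each with 1 gene at an unadjusted p under 0.05. In these comparisons 4.06% and 4.71% of all probe sets had such a p-value, and 19.4% and 19.7% of the other named ones. The 1 named interferon gene of 20, Stat2, gave -0.17 over all knockout groups, also without a call. With so few markers named, the part of cell composition in the differences was not tested.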

How the data were processed

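Per the file headers, the array signals (probe annotation na31, mouse build mm9) were summarised by RMA16. The authors deposited log2 values centred on each row's median (row medians were 0 within 7.02e-07). Per the file headers, the deposited list holds 1264 probe sets that passed a percentile filter, each with an uncorrected p-value from a Welch analysis of variance. The authors also deposited a linear fold ratio and a signed fold score, which were not used.

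limma 3.58.1 (R 4.3.3) was run on all 28853 probe sets (4 groups, 4 residual and 3.67 prior degrees of freedom). Tests were two-sided, with Benjamini-Hochberg adjustment over all probe sets. The procedure was tested on simulated data with independent noise in each array. That setting leaves out the correlation of same-numbered arrays given below. Full values went to members called in any of 5 comparisons, with or without the block, and to the 5 largest differences per direction at an unadjusted p under 0.05. Members, roles and lists were chosen with earlier results of these data known. After subtracting group means, arrays with the same number correlated, at 0.36 to 0.533 over the 6 group pairs. This comes from the values, not the labels, and the replicate number was also fitted as a block. RefSeq (GRCm38.p6) held 38 of 39 members. No member had a blank cell. Values of 1 member, which enters the counts, are not reported here. The number of arrays limits the precision.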

Additional observations from a re-analysis of the deposited data

How the results depend on the processing

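The count of members called moved with the fit. With the replicate block it was 6 for KO_MIG minus WT_MIG and 12 for the mean of the 3 knockout groups minus WT_MIG, against 1 and 7. Fitted on its own 4 arrays, the first comparison gave 0. Without 1 array it ranged from 0 to 2 and from 1 to 7, with 1 left without WT_MIG replicate 2 and 2 without WT_MIG replicate 3. A lone array is then assumed to vary like the other groups. The comparisons among knockout groups gave 0 in every setting, and the block changed no call other than those given above. Centring arrays, averaging probe sets of a symbol and robust variance estimation changed no call. Of 53 named values none changed sign in any setting, 7 of 8 calls were lost in at least 1 setting, and 10 values gained one. Background intensity, scan date and dim-probe filters could not be examined on centred values.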
